A study of Mus musculus with 6 samples.

Results

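The 9 genes described here encode amino acid transporters of the cell surface: the shared heavy chain Slc3a2, its light chains Slc7a5 and Slc7a6, the cationic carriers Slc7a1 and Slc7a3, the neutral exchangers Slc1a4 and Slc1a5, the sodium-coupled carrier Slc38a2 and the glycine transporter Slc6a9. They were picked by symbol from a table of 29139 genes, and each of the 9 symbols matched 1 Ensembl identifier. Of these 9, 7 passed a filter on low counts and entered the test with 11864 genes in all, while Slc7a3 and Slc38a2 did not pass it.

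The samples were ICR mouse embryos at the 2-cell stage held in KSOM, a culture medium for embryos before implantation. A set of 3 libraries, numbered 1 to 3, came from embryos given the solvent DMSO at 0.1%, and another 3 from embryos given 75 µM of MS-444, a small molecule reported to inhibit the RNA-binding protein HuR, the product of Elavl1. The protocol names 16 embryos for lysis, so each library averages over many blastomeres, and fewer embryos cannot be told apart from less RNA per embryo. The labels do not say whether replicates came from separate mothers or cultures, so the p-values describe sample-to-sample spread alone, and part of it may be technical.

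Amino acid carriers of the SLC families set how fast a cell can exchange amino acids with its surroundings. The SLC7 light chains LAT1 and y+LAT2 reach the cell surface bound to the glycoprotein CD98, encoded by Slc3a2, and exchange 1 amino acid for another. ASCT2, encoded by Slc1a5, brings in glutamine and other neutral amino acids, and GLYT1, encoded by Slc6a9, imports the glycine that early mouse embryos use to control their volume. HuR binds AU-rich stretches in the 3′ UTR of many mRNAs, and in human hepatoma cells the mRNA of SLC7A1 is a known target.

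The AU-rich pentamer ATTTA was counted on the sense strand in the annotated 3′ UTR of each member, because HuR is the reported target of the compound. It occurred in 5 of the 9 genes, with 6 matches in Slc7a1, 5 in Slc7a6, 5 in Slc38a2, 1 in Slc3a2 and 1 in Slc1a4. Slc7a5, Slc7a3, Slc1a5 and Slc6a9 held 0 matches, in 3′ UTRs of 1890, 241, 535 and 183 bases in that order. For each gene the 3′ UTR of 1 transcript was used, the one with the longest coding part. Among tested genes with a 3′ UTR of at least 100 bases, 71.6% held at least 1 match, with a median of 2. The median length there was 1045 bases, and Slc7a3 and Slc38a2 are not among those genes. Per length, Slc7a6 held 2.42 matches per kilobase against a median of 1.5 over those genes, and Slc7a1, whose 3′ UTR is 5030 bases long, held 1.19. The window of 30 bases with the most matches is shown for each of the 5 genes, 5′ to 3′ on the strand of the gene, with ATTTA in capitals and positions in GRCm38 from GENCODE M21. They lie at chr5:148327938-148327967 on the minus strand for Slc7a1, chr8:106197593-106197622 on the plus strand for Slc7a6, chr15:96689702-96689731 on the minus strand for Slc38a2, chr19:8707235-8707264 on the minus strand for Slc3a2 and chr11:20302650-20302679 on the minus strand for Slc1a4.
Slc7a1: atctttgtATTTAagatATTTActgctttg
Slc7a6: tgtcattATTTAttgatATTTAatccagga
Slc38a2: aaacacttcttaATTTAcagcaaagtattg
Slc3a2: cttaaattaatcATTTAgagaccaaggcta
Slc1a4: cttttcctctgtATTTAcatatactttatg
Slc7a1 and Slc7a6 held 2 pentamers within 1 window, and the other 3 genes held 1. A match describes the letters of the annotated transcript and does not show that the site is used.

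A promoter window, from 250 bases before to 50 after the start site, was found in RefSeq (GRCm38.p6) for 6 of the 9 members, with 10 windows in all. They were searched on both strands for TGATGNAA, the core shared by elements that the stress factor ATF4 binds in amino acid deprivation. Slc1a4 was the 1 member with a match, in 1 of the 10 windows. Slc7a11, a further partner of Slc3a2, held 2 matches, where 3.97% of 32851 promoter windows hold at least 1. The matches are shown in capitals within a stretch of 40 bases at chr11:20332694-20332733 for Slc1a4 and of 59 bases at chr3:50443637-50443695 for Slc7a11, both on the minus strand.
Slc1a4: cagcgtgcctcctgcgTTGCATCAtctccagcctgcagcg
Slc7a11: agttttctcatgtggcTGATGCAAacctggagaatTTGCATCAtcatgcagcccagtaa
In both stretches the letters TTGCATCA are the motif read from the opposite strand. The windows of Slc3a2, Slc7a1, Slc7a6, Slc38a2 and Slc6a9 did not hold these letters. Slc1a5, Slc7a5 and Slc7a3 had no window and were not searched.

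Libraries held 2637763 to 4695866 counts. Values below are CPM, counts relative to library size after TMM, a correction for composition. Elavl1, whose protein MS-444 is reported to bind, averaged 73.3 ± 22.3 CPM in DMSO and 51.4 ± 6.58 in MS-444 (log2 -0.51, edgeR adjusted p = 0.21). The 11 markers of the 2-cell stage summed to 1373 to 2068 CPM in DMSO and 1604 to 1984 in MS-444, and 13 oocyte markers to 8954 to 11447 and 5935 to 8007 CPM. Of the 13 oocyte markers, 6 passed as lower in MS-444 and 0 as higher, where 11.1% of all genes tested passed as lower and 14.4% as higher. Of the 10 tested 2-cell markers, 1 passed as higher and 1 as lower. These were Eif1a (log2 1.92, edgeR adjusted p = 0.0086) and Zscan4f (log2 -1.47, edgeR adjusted p = 0.044). Among cells that could come along, the 12 cumulus and granulosa markers summed to 18.4 to 20.8 CPM in DMSO and 13.3 to 21.2 in MS-444, where 10 of the 12 had counts, with Ptx3, Inhba and Cyp11a1 each at 0 in 5 of 6 libraries. The 4 blood markers with counts summed to 2.04 to 7.37 and 9.89 to 26.0 CPM, nearly all from the globin gene Hba-a1, and the 5 sperm markers to 1.20 to 6.45 and 3.88 to 4.85 CPM. Hba-a1 passed as higher (log2 1.93, edgeR adjusted p = 0.026), a call lost without DMSO replicate 1 (1.73) or 3 (1.54) and without replicate 2 (1.48) or 3 (1.96) of MS-444. The part of blood RNA in the results below was not tested.

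Across the 7 tested members, MS-444 embryos differed from DMSO embryos in 1 gene, Slc1a5, which rose 2.65-fold. None of the other 6 passed in edgeR's quasi-likelihood test at an adjusted p of 0.05, and at an unadjusted p under 0.05 the count was also 1. Point estimates lay above 0 for 6 of the 7 genes and below 0 for Slc6a9. Of all genes tested, 25.5% passed, 14.4% as higher and 11.1% as lower, so the 1 of 7 members that passed (14.3%) was close to the share of all genes that were higher. With library totals in place of TMM, 71.2% of the calls over all genes were higher against 56.3% with it, and the median of all genes moved from 0.02 to 0.20 on the log2 scale. The groups did not overlap for 1 of the 7 members, again Slc1a5, against 43.9% of all genes, or 23% with MS-444 higher. The median log2 fold change was 0.45 over the 7 members and 0.02 over the genes tested.

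Slc1a5 (ENSMUSG00000001918), the glutamine carrier, stood at 12.4, 5.76 and 9.95 CPM in DMSO replicates 1, 2 and 3 and at 20.9, 29.9 and 22.8 CPM in MS-444 replicates 1, 2 and 3. Each MS-444 library lay above each DMSO library, and these values rest on 25 to 100 counts per library. Means of 9.37 ± 3.36 and 24.5 ± 4.73 CPM (SD, n = 3) gave 1.41 on the log2 scale (SE 0.37, 95% interval 0.59 to 2.22, edgeR adjusted p = 0.022). Leaving out DMSO replicate 2 ended the call (1.08, adjusted p = 0.072), as did leaving out DMSO replicate 3 (1.42, adjusted p = 0.054), replicate 2 of MS-444 (1.18, adjusted p = 0.0997) or its replicate 3 (1.45, adjusted p = 0.064). It held without either replicate 1 and in each of the 10 other settings, with adjusted p from 0.0066 to 0.029 in those 10.

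Slc1a4 (ENSMUSG00000020142) encodes ASCT1, the relative of ASCT2 that exchanges alanine, serine, cysteine and threonine. It had 4.0, 0.691 and 3.83 CPM in the DMSO libraries and 3.66, 4.48 and 3.15 CPM in the MS-444 libraries. The groups overlapped, and DMSO replicate 2, with 3 counts, stood below the other 5 libraries. The log2 fold change was 0.45 (SE 0.61, 95% interval -0.90 to 1.79, edgeR adjusted p = 0.61), an interval that includes the estimate of Slc1a5. Whether the pair differed in its response was not tested. Without DMSO replicate 2 the estimate of Slc1a4 turned to -0.12 (adjusted p = 0.90).

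**Figure D1:**
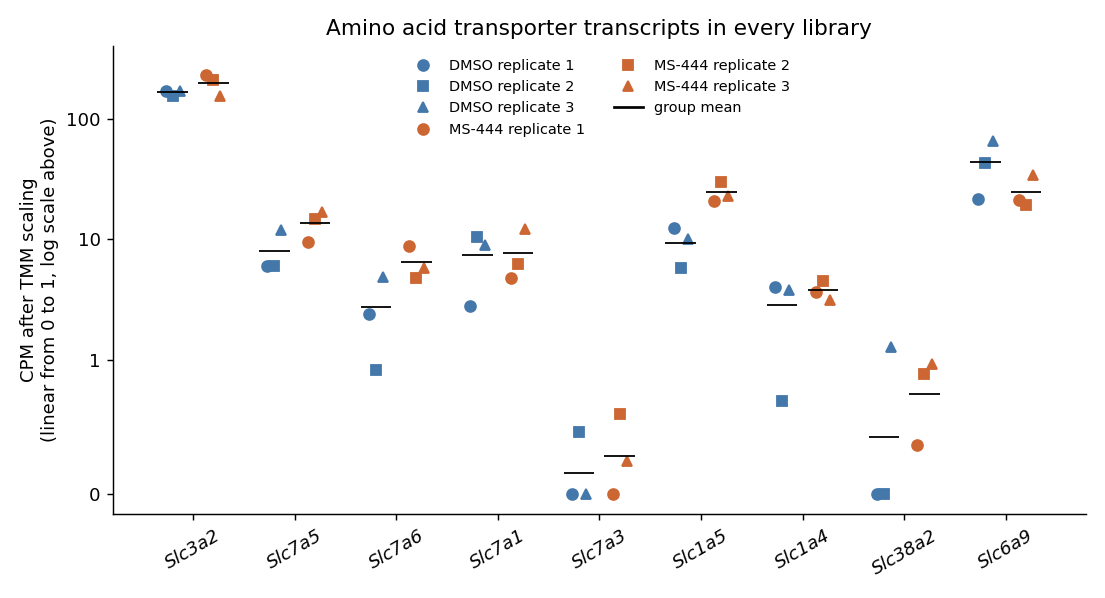
CPM after TMM scaling (linear from 0 to 1, log scale above) of the 9 transporter genes in each library, blue for DMSO and orange for MS-444, with the shape giving the replicate and black lines the group means. Slc3a2 lies above 150 CPM in each library, Slc7a3 and Slc38a2 lie near or at 0, and the groups separate for Slc1a5 (5.76 to 12.4 against 20.9 to 29.9 CPM).

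Slc3a2 (ENSMUSG00000010095) had 170.7, 152.9 and 170.2 CPM in DMSO and 231.9, 209.1 and 153.3 CPM in MS-444. MS-444 replicates 1 and 2 stood above the DMSO libraries, and MS-444 replicate 3 stood within their range. With 427 to 700 counts per library it was the best measured member. Its log2 fold change was 0.27 (SE 0.24, edgeR adjusted p = 0.44), with a 95% interval of -0.27 to 0.80. Slc3a2 made up 61.5% to 77.6% of the summed CPM of the 9 members in DMSO and 61.5% to 77% in MS-444.

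Slc7a5 (ENSMUSG00000040010) encodes LAT1, which imports large neutral amino acids such as leucine. Its values were 6.0, 5.99 and 12.0 CPM in DMSO and 9.52, 14.6 and 16.7 CPM in MS-444. DMSO replicate 3 stood between MS-444 replicates 1 and 2, so the groups overlapped. The log2 fold change was 0.77 (SE 0.41, 95% interval -0.15 to 1.68, edgeR adjusted p = 0.19). Over the 16 alternatives the estimate ran from 0.52 to 1.14 and did not pass in any.

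Slc7a6 (ENSMUSG00000031904) encodes y+LAT2, which exports cationic amino acids in return for neutral ones. It had 2.4, 0.921 and 4.85 CPM in DMSO and 8.79, 4.78 and 5.82 CPM in MS-444. DMSO replicate 3 and MS-444 replicate 2 stood side by side at 4.85 and 4.78 CPM, and the other libraries separated by group. The log2 fold change was 1.23 (SE 0.59, 95% interval -0.07 to 2.52, edgeR adjusted p = 0.14), from 29 counts in DMSO and 64 in MS-444. Leaving out DMSO replicate 2 gave 0.72, and leaving out the third DMSO library gave 1.98, neither past the threshold.

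**Figure D2:**
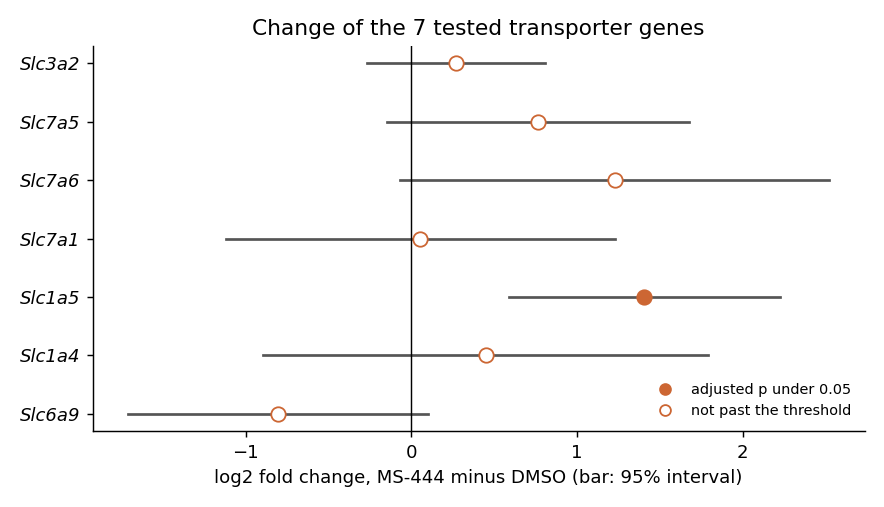
Log2 fold change, MS-444 minus DMSO, of the 7 tested transporter genes with 95% intervals, filled where the adjusted p was under 0.05. The interval of Slc1a5 (0.59 to 2.22) lies above 0, and those of the other 6 genes span 0.

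CD98 needs a light chain to carry amino acids, so light chain transcripts were set against Slc3a2 per kilobase of exon. Whether counts in these libraries grow with exon length was not tested, and the size of each ratio depends on it. Without division by length, Slc3a2 averaged 164.6 CPM in DMSO and 198.1 in MS-444, and Slc7a11 averaged 210.8 and 108.5. In CPM, Slc7a11 stood above Slc3a2 in each DMSO library and below it in each MS-444 library. Per kilobase, Slc7a11 stood below Slc3a2 in each library of both groups. The ratios were not repeated with the longest transcript as length. Besides Slc7a5 and Slc7a6, the partners Slc7a7, Slc7a8 and Slc7a11 had counts in the table. Slc7a11, the cystine and glutamate exchanger, was the most abundant light chain in each library. Its level was 0.268, 0.315 and 0.391 of that of Slc3a2 in DMSO replicates 1 to 3 and 0.156, 0.114 and 0.148 in MS-444 replicates 1 to 3. Slc7a5 and Slc7a6 together stood at 0.0443, 0.0419 and 0.0891 of Slc3a2 in DMSO and at 0.0684, 0.0843 and 0.133 in MS-444. The groups did not overlap in the first ratio and overlapped in the second, where DMSO replicate 3 was above MS-444 replicates 1 and 2. Summed over the light chains, the ratio to Slc3a2 was 0.394 ± 0.087 for DMSO embryos and 0.238 ± 0.042 for MS-444 embryos (SD, n = 3). These ratios mix members with other genes and were given no test. In the fit over all genes Slc7a11 fell by 0.96 on the log2 scale, with 210.8 ± 44.9 CPM in DMSO against 108.5 ± 29.5 (SE 0.28, edgeR adjusted p = 0.031). This call was lost with library totals in place of TMM (-0.78, adjusted p = 0.059), without DMSO replicate 3 (-0.82) and without replicate 2 (-0.92) or 3 (-0.85) of MS-444.

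**Figure D3:**
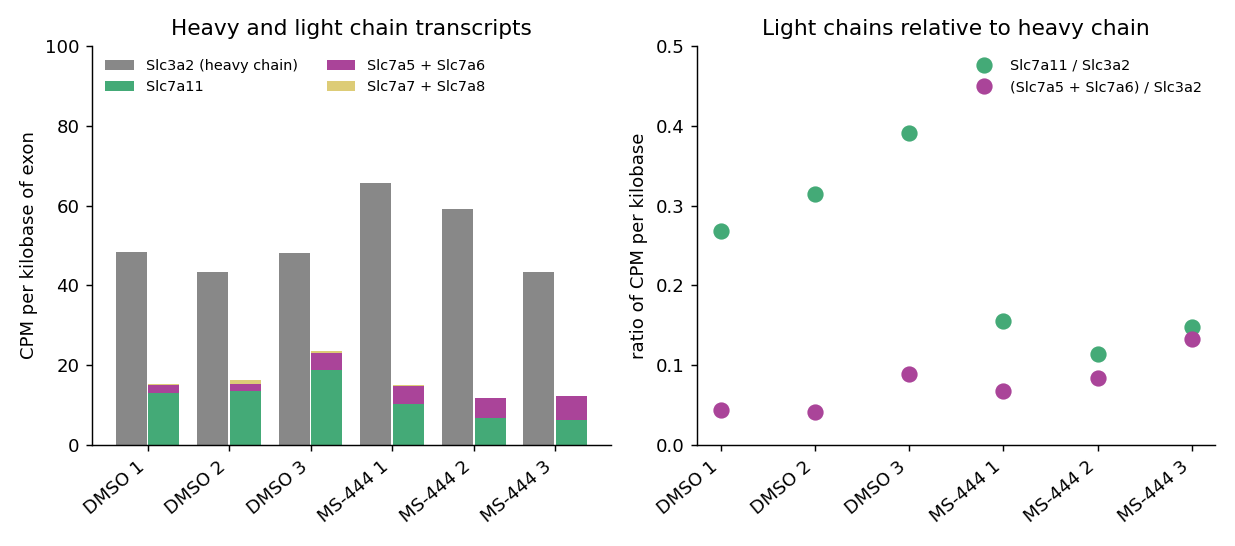
Left, CPM per kilobase of exon of the heavy chain Slc3a2 and of its stacked light chains in each library. Right, the level of Slc7a11 and of Slc7a5 plus Slc7a6 relative to Slc3a2: the Slc7a11 ratio is 0.268 to 0.391 in DMSO and 0.114 to 0.156 in MS-444.

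Slc7a1 (ENSMUSG00000041313), the CAT1 carrier of arginine and lysine, had 2.80, 10.4 and 8.93 CPM in DMSO and 4.76, 6.27 and 12.1 CPM in MS-444. In both groups replicate 1 was the lowest, and the ranges overlapped for most of their width. The log2 fold change was 0.05 (SE 0.53, edgeR adjusted p = 0.95), with a 95% interval of -1.12 to 1.23. Its sign turned in 4 of the 16 alternatives, among them leaving out DMSO replicate 1 (-0.36) or MS-444 replicate 3 (-0.45). Slc7a3 (ENSMUSG00000031297), the related carrier CAT3, had 2 counts in DMSO replicate 2 and 0 in the other DMSO libraries. In MS-444 it had 0, 2 and 1 counts in replicates 1 to 3. A count of 0 allows up to 1.20 CPM in DMSO replicate 1, 0.765 in DMSO replicate 3 and 1.10 in MS-444 replicate 1, from 3 counts per library, so a difference below these levels was not detectable at this depth.

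Slc38a2 (ENSMUSG00000022462) encodes SNAT2, a carrier of small neutral amino acids known to be induced when cultured cells are deprived of amino acids. It had 0, 0 and 5 counts in DMSO and 1, 3 and 4 counts in MS-444, or at most 1.28 CPM. The 5 DMSO counts came from replicate 3 alone, which stood above the MS-444 libraries. Without the filter on low counts the log2 fold change was 0.65 (SE 1.20, edgeR adjusted p = 0.75) for Slc38a2 and 0.57 (SE 1.66, edgeR adjusted p = 0.85) for Slc7a3.

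Slc6a9 (ENSMUSG00000028542), the glycine transporter gene, had 21.6, 43.0 and 65.6 CPM in DMSO and 21.2, 19.1 and 34.2 CPM in MS-444. DMSO replicate 1 stood among the MS-444 libraries, and DMSO replicates 2 and 3 stood above them. Means of 43.4 ± 22 and 24.9 ± 8.17 CPM (SD, n = 3) gave -0.81 on the log2 scale (SE 0.41, 95% interval -1.71 to 0.10, edgeR adjusted p = 0.17). It passed without DMSO replicate 1 (-1.19, adjusted p = 0.032), whereas leaving out the third DMSO library gave -0.43 (adjusted p = 0.47). Correlations of log2(CPM + 1) over the genes tested were 0.89 to 0.90 between DMSO replicate 1 and the MS-444 libraries. They were 0.82 to 0.86 between DMSO replicates 2 and 3 and the MS-444 libraries. DMSO replicate 1 lay closer to its own group, at 0.94 with DMSO replicate 2 and 0.93 with DMSO replicate 3.

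**Figure D4:**
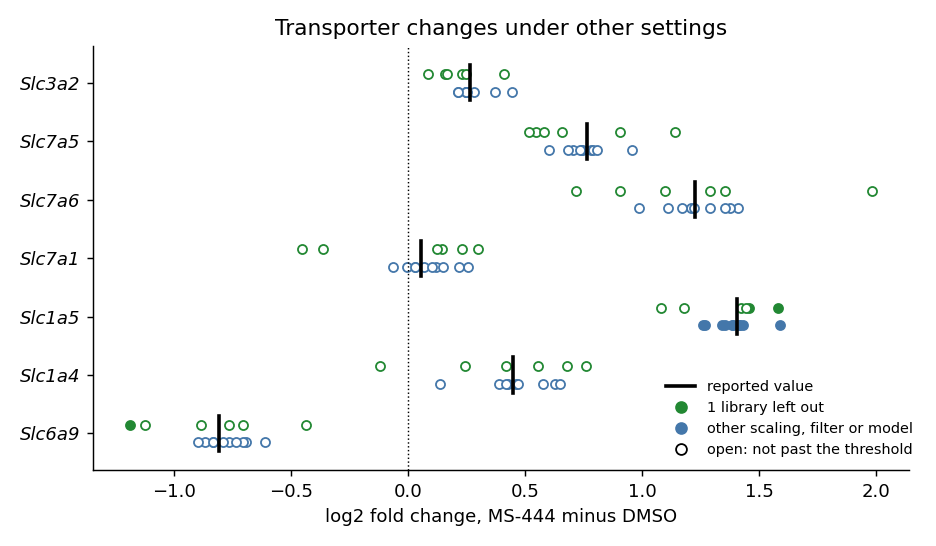
Log2 fold change of the 7 tested genes as reported (black) and under other settings, with 1 library left out (green) or another scaling, filter or model (blue), filled where the adjusted p was under 0.05. Slc1a5 stays between 1.08 and 1.59 and is open in 4 of the green points, and Slc6a9 is filled in 1.

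Levels of different genes were compared per kilobase of exon. This takes counts to grow with exon length, which was not tested, and the order depends on it. Without the division, Slc7a1 averaged 7.36 CPM in DMSO and Slc1a4 averaged 2.84. In MS-444, Slc6a9 averaged 24.9 CPM and Slc1a5 averaged 24.5, the reverse of their order per kilobase. In DMSO, Slc3a2 led with 46.6 ± 2.88 CPM per kilobase of exon, followed by Slc6a9 with 8.44 ± 4.28, Slc1a5 with 2.24 ± 0.80 and Slc7a5 with 2.16 ± 0.93 (SD, n = 3). Slc1a4, Slc7a1 and Slc7a6 came next at 0.723, 0.639 and 0.596 CPM per kilobase, and Slc38a2 and Slc7a3 last at 0.048 and 0.041. The ranges of Slc1a5 and Slc7a5 overlapped, as did those of Slc1a4, Slc7a1 and Slc7a6 and those of Slc38a2 and Slc7a3, so these neighbours did not differ beyond their spread. In MS-444, Slc3a2 led with 56.1 ± 11.5 CPM per kilobase, and Slc1a5 was second with 5.88 ± 1.13, ahead of Slc6a9 with 4.84 ± 1.59 and Slc7a5 with 3.68 ± 1.0. Slc1a5 overlapped there with Slc6a9, and Slc6a9 with Slc7a5. Slc7a6, Slc1a4 and Slc7a1 followed at 1.41, 0.959 and 0.670 CPM per kilobase, with ranges that overlapped between neighbours.

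The genes nearest to Slc3a2 in profile were Ankrd31, Adpgk and Sugt1, with root mean square differences of 0.053, 0.059 and 0.071 over the 6 libraries. The measure used log2(CPM + 1) minus its mean over DMSO. They were picked by this measure, so their likeness to Slc3a2 in pattern and in fold change is not a separate result. Like Slc3a2, they were highest in MS-444 replicate 1 and had MS-444 replicate 3 near the DMSO level. Their log2 fold changes of 0.34, 0.28 and 0.19 did not pass (edgeR adjusted p 0.49 to 0.58).

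Other genes that move, sense or use amino acids were counted in lists. Of 12 further carriers of the plasma membrane that were tested, 0 passed as higher and 2 as lower, or 16.7% in all against 25.5% of all genes (median log2 fold change -0.28). Besides Slc7a11, the second was Slc6a20b, a member of the proline and betaine carrier group, with 5.47 ± 0.48 CPM in DMSO against 1.61 ± 0.35 (log2 -1.75, SE 0.46, edgeR adjusted p = 0.022). Slc6a20b has a close paralog, Slc6a20a (0.33, adjusted p = 0.62), with which reads may be shared, and its call was lost without either group's replicate 2 or 3 (-1.90 to -1.58). Of 6 carriers of lysosomes and other inner membranes, 1 passed (16.7%): Slc38a9, the lysosomal arginine sensor of mTORC1, fell to 3.92 ± 0.81 CPM from 12.9 ± 2.27 in DMSO (log2 -1.72, SE 0.39, edgeR adjusted p = 0.012), a call lost without MS-444 replicate 2 (-1.62). Pqlc2, named for its mean CPM over the 6 libraries, the highest of these 6 with no correction for length, had 1.03 on the log2 scale (edgeR adjusted p = 0.097) and passed without DMSO replicate 1 (1.38). Of 6 mitochondrial carriers, 1 passed (16.7%), as higher: Slc25a38, a glycine carrier needed for heme synthesis, rose by 1.15 on the log2 scale, with 33.2 ± 9.99 CPM in DMSO and 73.9 ± 8.39 in MS-444 (edgeR adjusted p = 0.019), a call lost without DMSO replicate 2 or MS-444 replicates 2 or 3 (0.89 to 1.13). The ornithine carrier Slc25a15, with the highest mean CPM of them, had -0.54 (adjusted p = 0.12).

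Of 32 tested genes of mTORC1 and its amino acid sensors, 2 passed as higher and 6 as lower, or 25.0% in all (median 0.10), which is close to the 25.5% of all genes. The Rag GTPase Rraga, which brings mTORC1 to the lysosome, fell by 2.38 on the log2 scale (233.5 ± 35.8 CPM in DMSO, 44.9 ± 7.81 in MS-444, SE 0.26, edgeR adjusted p = 0.0024). Nprl2 of the GATOR1 complex, which restrains the Rag GTPases, fell by 1.58 (77.3 ± 18.9 and 25.9 ± 3.07 CPM, edgeR adjusted p = 0.0063). Both calls held in each of the 16 alternatives. The mTOR inhibitor Deptor (-0.97), the Ragulator subunit Lamtor3 (-1.10) and Tsc1 (-1.10), a brake on mTORC1, fell as well, and Eif4ebp1, a translation repressor that mTORC1 phosphorylates, rose by 1.60, with edgeR adjusted p of 0.014, 0.017, 0.034 and 0.016 in that order. Leaving out MS-444 replicate 2 ended these 4 calls (-0.99, -1.18, -1.15 and 1.43), and leaving out MS-444 replicate 3 ended those of Deptor (-0.96), Tsc1 (-1.10) and Eif4ebp1 (1.46). The call of Eif4ebp1 was also lost without DMSO replicate 3 (1.29), and that of Tsc1 with library totals (-0.91), without MS-444 replicate 1 (-1.17) or without the third DMSO library (-0.79). Rragc, with the highest mean CPM of the list, had -0.42 (adjusted p = 0.22). The remaining calls were Rragd, also a Rag GTPase, which rose by 1.59 (2.55 ± 1.03 and 7.50 ± 2.36 CPM, edgeR adjusted p = 0.038), and Sec13 (-0.70, edgeR adjusted p = 0.049). The alternatives were not run for these calls. A list built around GCN2 and ATF4, which act in amino acid shortage, also held genes not particular to that response. Among its 14 tested genes, 3 passed as higher and 0 as lower, or 21.4% in all against 25.5% of all genes (median 0.51). They were the pseudokinase Trib3 (1.54, edgeR adjusted p = 0.012), the serine synthesis enzyme Psat1 (1.48, 0.021) and the phosphatase subunit Ppp1r15b (1.11, 0.033). Their calls were lost without MS-444 replicate 3 (1.29, 1.60 and 0.95), those of Psat1 and Ppp1r15b also without DMSO replicate 2 (1.14 and 0.99), DMSO replicate 3 (1.28 and 0.84) or MS-444 replicate 2 (1.43 and 1.03), and that of Psat1 without MS-444 replicate 1 (1.29). Eif2s1, with the highest mean CPM of the list, had 0.56 (adjusted p = 0.17). Atf4 itself had -0.04 (edgeR adjusted p = 0.94), and Eif2ak4, which encodes GCN2, had -0.68 (edgeR adjusted p = 0.057). Of the 14 estimates, 8 lay above 0. The lowest was that of Cebpb (-1.43, edgeR adjusted p = 0.0501), which narrowly did not pass.

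Of 11 genes that tag or route membrane transporters, 1 passed in each direction, or 18.2% in all (median -0.10). Over all genes tested, 25.5% passed, 14.4% as higher and 11.1% as lower. Nedd4l, a ubiquitin ligase that takes channels and carriers off the cell surface, fell by 1.45 on the log2 scale (388.5 ± 69.1 CPM in DMSO, 142.5 ± 4.92 in MS-444, SE 0.23, edgeR adjusted p = 0.0046), and its call held in each of the 16 alternatives. Arrdc4, an arrestin-like adaptor, rose by 1.77 from 1.86 CPM (edgeR adjusted p = 0.033), a call lost after quantile normalization (1.12) and without any 1 library other than DMSO replicate 1 (1.38 to 1.96). Of 19 tested cytosolic aminoacyl-tRNA synthetases, 1 passed as higher and 4 as lower (26.3% in all against 25.5% of all genes, median -0.28). Farsb (-1.12), Gars (-1.16), Nars (-1.01) and Sars (-1.03) fell and Yars rose by 1.53, with edgeR adjusted p of 0.0092, 0.032, 0.025, 0.048 and 0.031. The call of Farsb, with the highest mean CPM of them at 327.1 ± 45.1 and 150.5 ± 16.5 CPM, held in each of the 16 alternatives, and those of the other 4 were lost in 3 to 8. Each of these 4 was lost without DMSO replicate 3 and without replicates 2 or 3 of MS-444 (-1.11 to -0.82 for Gars, -1.16 to -0.82 for Nars, -1.21 to -0.86 for Sars and 1.31 to 1.66 for Yars). Sars and Yars were also lost without DMSO replicate 2 (-1.10 and 1.21) or MS-444 replicate 1 (-1.10 and 1.41).

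**Figure D5:**
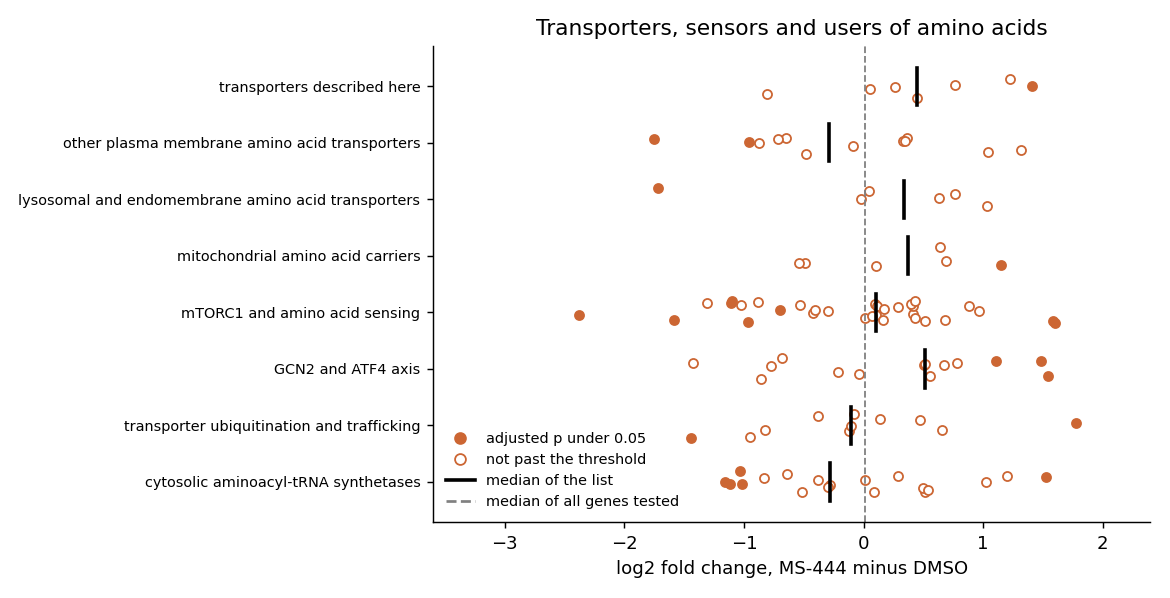
Log2 fold change, MS-444 minus DMSO, of every tested gene in the transporter group and in 7 related lists, filled where the adjusted p was under 0.05, with the median of each list in black and that of all genes as a dashed line at 0.02. Filled points lie on both sides of 0, from Rraga at -2.38 to Arrdc4 at 1.77.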

How the data were processed

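RNA was sequenced from 6 libraries of 2-cell mouse embryos. The authors deposited 1 table of counts per gene with 1 column per library, and its values are whole numbers that sum to a different total per library. HISAT2, Cufflinks 2.2.1 and the build mm9 are listed, per the submitters' processing notes. The sources used here do not give the counting program, its annotation, the strand setting or the handling of shared reads, so counts of overlapping genes and close paralogs are uncertain. Per the labels' protocols, samples were pooled after reverse transcription and the cDNA was amplified by PCR, so the limits that a count of 0 allows cover counting error only.

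Symbols, exon lengths and 3′ UTRs came from GENCODE M21 (GRCm38), which named 29127 of 29139 identifiers, and promoters from RefSeq (GRCm38.p6). No coordinates were taken from mm9, and the planned comparison of protein sequences was not made. edgeR 4.0.16 in R 4.3.3 kept 11864 genes by its expression filter (minimum count 10), scaled libraries by TMM and compared MS-444 with DMSO by the two-sided quasi-likelihood test, adjusting p-values over all genes tested by Benjamini-Hochberg and a threshold of 0.05. Standard errors and 95% intervals were derived from that test. They rest on the spread between replicates, which the test moderates with information from all genes tested. Alternatives used limma 3.58.1, DESeq2 1.42.0, other scalings and filters, a replicate block, offsets for GC content and gene length, and each library left out. The test was checked on simulated data, where it returned few of the 2-fold changes and most of the 4-fold changes, none with the wrong sign. Far fewer genes were changed in the simulation than passed here, so its recovery of changes does not carry over to this comparison.

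The members and lists were chosen with earlier results of these data known. The genes named by rule are the members, up to 6 passing genes of smallest adjusted p and the tested gene of highest mean CPM per list. They also include Elavl1 and the 3 nearest profiles to Slc3a2. Markers and a few further list genes are named outside this rule.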

Additional observations from a re-analysis of the deposited data

How the results depend on the processing

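For 37 of the tested genes named, the 16 alternatives gave 586 values. Of these, 510 kept their direction and side of the threshold, 67 lost a call, 2 gained one and 7 turned in sign. Slc7a1 turned after quantile normalization (-0.065), without the filter on low counts (-0.0017), and without DMSO replicate 1 or MS-444 replicate 3 (-0.36 and -0.45), within a range of -0.45 to 0.30 when 1 library was left out. Slc6a20a turned after quantile normalization (-0.14). Slc1a4 turned without DMSO replicate 2 (-0.12, range -0.12 to 0.76) and Sugt1 without MS-444 replicate 1 (-0.019, range -0.019 to 0.31). Leaving out 1 library gave 0 to 1 members higher and 0 to 1 lower, the latter Slc6a9 without DMSO replicate 1, and over all genes 659 to 2099 higher and 500 to 1721 lower, where the reported counts were 1706 and 1322. The lowest counts came without MS-444 replicate 2 (659 and 552) or 3 (671 and 500), followed by DMSO replicate 3 (880 and 894) and DMSO replicate 2 (1044 and 962). Library totals gave 881 lower. The cause was not tested. With the longest transcript as length, levels in CPM per kilobase became 58.5 in DMSO and 70.4 in MS-444 for Slc3a2, 1.03 and 1.08 for Slc7a1, 3.34 and 8.74 for Slc1a5, and in MS-444 7.15 for Slc6a9 and 0.122 for Slc38a2.

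Same-numbered libraries of the groups did not deviate together (correlations 0.06, 0.38 and -0.10), so the numbers were not taken as pairs. With the replicate block 1 member passed, Slc1a5 at 1.43 (edgeR adjusted p = 0.024), and over all genes 1971 were higher and 1434 lower. Slc7a6 and Slc1a4 gave no value with the filter at a mean of 5 CPM. Slc1a4, Slc7a6 and Slc7a1, with 28 to 87 counts over a group, had the widest intervals of the tested members.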
